A study of Macaca fascicularis with 24 samples.

Results

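ENSMFAG00000036776 is 1 gene of the 29324 Ensembl gene IDs counted in brain punches of cynomolgus macaques (Macaca fascicularis), and its row is present in all 24 libraries. It was chosen by the treated against non-treated contrast of these same counts, in which it had the smallest adjusted p of the genes lowered in animals given a divalent siRNA against Huntingtin. The difference between treated and non-treated animals is therefore given here as a description without a test. The group labelled treated holds 4 animals that received this siRNA, and the group labelled non-treated holds 4 animals for which the labels name no agent, vehicle or control siRNA. Animals are numbered 1 to 4 within each group, as in the sample titles. Each gave 3 punches that were sequenced separately, and the labels state neither the brain region of a punch nor the age, dose, route or time after dosing. Polyadenylated RNA was sequenced, and values are given as CPM, the gene's reads relative to a fixed library total, after TMM scaling, which sets libraries to a common level through the genes that most of them share.

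A small interfering RNA loads its guide strand into the Argonaute protein of the RNA-induced silencing complex, which cuts transcripts that pair with the guide. The cut pieces are then degraded, so silencing by this route is seen as a lower level of the target transcript in RNA sequencing. A divalent siRNA joins a pair of such duplexes through a linker, a form made to be retained and to spread in brain tissue. Huntingtin is a large scaffold protein active in vesicle transport, and expansion of a CAG repeat in its gene causes Huntington's disease. The files do not pair Ensembl IDs with names. The reference table of gene names at hand gave an Ensembl ID for 0 of its 40596 entries, so it could not name any of the 29324 IDs. The identity of ENSMFAG00000036776, whether it is the siRNA's target, its position and its sequence were therefore not analysed here, and neither were markers of brain cell types.

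Library totals ran from 6761946 to 15741415 reads. Punch 3 of non-treated animal 1 stood apart, with reads in 11412 genes against 15946 to 17568 in the other libraries. In that library 78.4% of reads fell in the 12 genes that each hold over 1% of all reads, and punch 1 of treated animal 1 followed with 56.4%. The main results that involve these libraries are also given without them.

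ENSMFAG00000036776 was readily counted in the non-treated brain and remained detectable in every treated punch. The sum of 3 punches held 448 to 597 reads of the gene per non-treated animal and 108 to 190 per treated animal. Non-treated animals 1 to 4 had 17.1, 17.3, 17.9 and 16.6 CPM. Treated animals 1 to 4 had 3.36, 4.50, 4.66 and 3.78 CPM. The groups did not overlap, and the ratio of the lowest non-treated animal to the highest treated animal was 3.56. Among all 14892 genes tested, 3.2% likewise had all 4 treated animals below all 4 non-treated animals, and 0.0336% (5 genes) passed the edgeR test at an adjusted p under 0.05. Without punch 1 of treated animal 1, 18 genes passed, and without both libraries that stood apart 21.

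Treated animals kept 19.5% to 27.1% of the mean level of the non-treated animals. The fitted log2 fold change was -2.08 (SE 0.147, 95% interval -2.40 to -1.76, edgeR quasi-likelihood fit, n = 4 animals each). As a fold this interval spans 0.189 to 0.296 of the non-treated level. The log2 fold change was -2.09 when punch 3 of non-treated animal 1 was left out, -2.10 when punch 1 of treated animal 1 was left out and -2.11 without both. The interval takes no account of the gene having been picked for this difference. In such bulk tissue, fewer cells that express the gene and less of its RNA per cell cannot be told apart.

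Within each group the animals lay close together. By the sums of reads, the order from lowest to highest was treated animals 1, 4, 2 and 3, followed by non-treated animals 4, 1, 2 and 3. The highest non-treated animal exceeded the lowest 1.08-fold, and the highest treated animal exceeded the lowest 1.39-fold. In such sums the deeper punches weigh more. With punches weighted equally, the mean log2(CPM + 0.5) of non-treated animals 1 to 4 was 3.97, 3.95, 4.19 and 4.05, which is another order. The treated animals kept theirs. Means of the punches' CPM ran from 15.4 to 17.7 in non-treated and from 3.32 to 4.65 in treated animals. Neighbours within a group, by their sums, differed by a ratio of at most 1.19. The ratio between the highest and lowest punch was 2.21, 1.35, 1.40 and 1.29 in treated animals 1 to 4. The 1.39-fold range over the treated animals thus exceeded that ratio in treated animals 2 and 4 but not in 1 and 3. Sums hold more reads than single punches, so the ratios are not alike in counting error. For each pair of animals of the same group, the ranges covered by their punches overlapped. These small differences between animals are not separate evidence, since a small spread between animals helped to select the gene.

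Single punches showed the same separation. The 12 non-treated libraries ran from 12.1 CPM through a median of 16.2 CPM to 22.0 CPM, on 38 to 344 reads of the gene. The 12 treated libraries ran from 1.86 CPM through a median of 4.09 CPM to 5.67 CPM, on 20 to 74 reads. All treated punches therefore lay below all non-treated punches, as in 0.0537% of the 13027 genes kept at the level of libraries. The lowest non-treated punch exceeded the highest treated punch 2.12-fold. Punches of an animal share that animal, so the 12 libraries of a group are not 12 replicates.

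**Figure D1:**
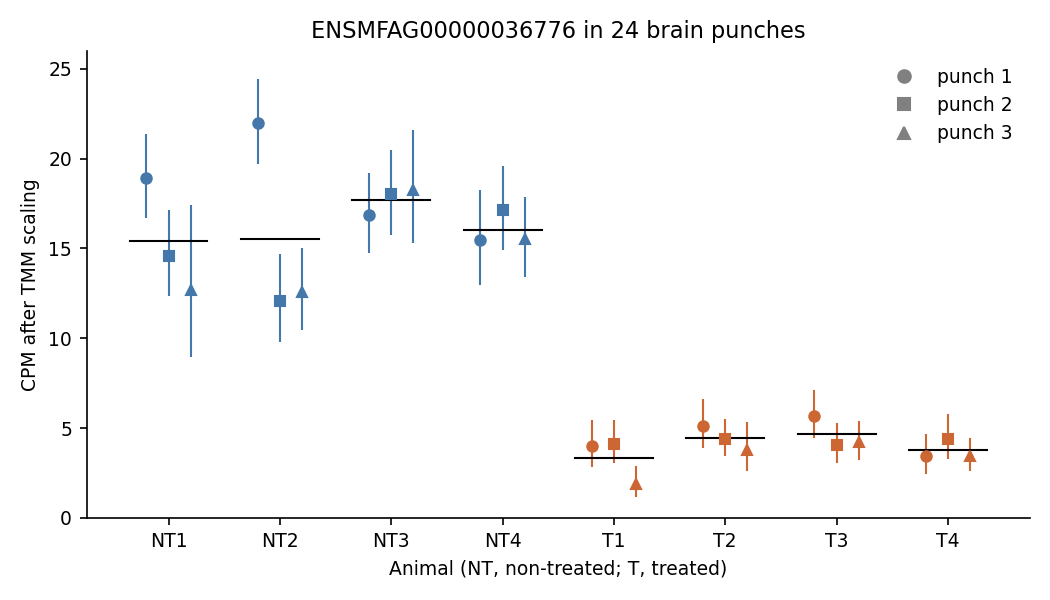
CPM after TMM scaling (y axis) of ENSMFAG00000036776 in each punch of 8 animals (x axis), with 95% exact Poisson intervals that cover counting error only and a line at the mean of each animal's 3 punches. The treated punches, at 1.86 to 5.67 CPM, sit below the non-treated punches, at 12.1 to 22.0 CPM.

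The level in each animal's punches showed where the gene varied. Non-treated animal 1 had 18.9, 14.6 and 12.7 CPM in punches 1, 2 and 3. Non-treated animal 2 had 22.0, 12.1 and 12.6 CPM. Punch 1 was the highest in both animals, while the remaining non-treated animals were nearly level. Non-treated animal 3 had 16.9, 18.0 and 18.2 CPM. Non-treated animal 4 had 15.5, 17.1 and 15.5 CPM. In animals 3 and 4 the highest punch exceeded the lowest only 1.08-fold and 1.11-fold, compared with 1.82-fold in animal 2.

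Among the treated animals, animal 1 varied the most. Its punches had 3.99, 4.12 and 1.86 CPM, the last being the lowest of all 24 libraries, at 20 reads (95% exact Poisson interval 1.14 to 2.88 CPM). The other treated animals stayed within a narrower band. Treated animal 2 had 5.11, 4.38 and 3.79 CPM. Treated animal 3 had 5.67, 4.06 and 4.22 CPM. Treated animal 4 had 3.42, 4.40 and 3.43 CPM, so that its punch 2 was the highest while in animals 2 and 3 it was punch 1.

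How much of this variation counting error alone would give was estimated from the reads. On the scale of log2(CPM + 0.5), the SD between the 3 punches of an animal averaged 0.224 ± 0.192 without treatment and 0.292 ± 0.172 with it (SD over 4 animals each). Without the 2 libraries that stood apart these means were 0.217 and 0.326. Counting error alone would give an SD of about 0.122 in non-treated and 0.188 in treated libraries. Pooled over the variances of the animals, the SD between punches was 0.279 and 0.327. Counting error made up 19.0% and 33.1% of this pooled variance. Animals differed in how far their punches exceeded counting error. The chi-square of the 3 counts against their scaled library sizes, per degree of freedom, was 22.9 in non-treated animal 2, 5.21 in treated animal 1 and 4.90 in non-treated animal 1, where counting error alone gives values near 1. It was 2.27 in treated animal 3 and 0.355 to 1.05 in the other 4 animals. This measure grows with the number of reads, which was higher in non-treated animals.

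Variation between animals was set against variation between punches of an animal. The SD of the animal means was 0.106 in the non-treated group and 0.218 in the treated group on the same log2 scale, and without the 2 libraries that stood apart 0.0985 and 0.284. With library size alone it was 0.271 and 0.335. After TMM scaling, the ratio of the mean square between animals to that within animals was 0.436 in the non-treated group and 1.34 in the treated group. Without the 2 libraries these ratios were 0.384 and 1.80. The gene's biological coefficient of variation between animals, as edgeR estimates it, was 15.8%, where the trend over genes of its abundance gave 21.0%. Within animals, with animal and punch number as terms, it was 16.7% against a trend of 19.0%. Of all genes fitted, 33.2% had a lower value between animals and 48.9% within animals. The value between animals is a description, since a small spread between animals helped to select the gene.

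**Figure D2:**
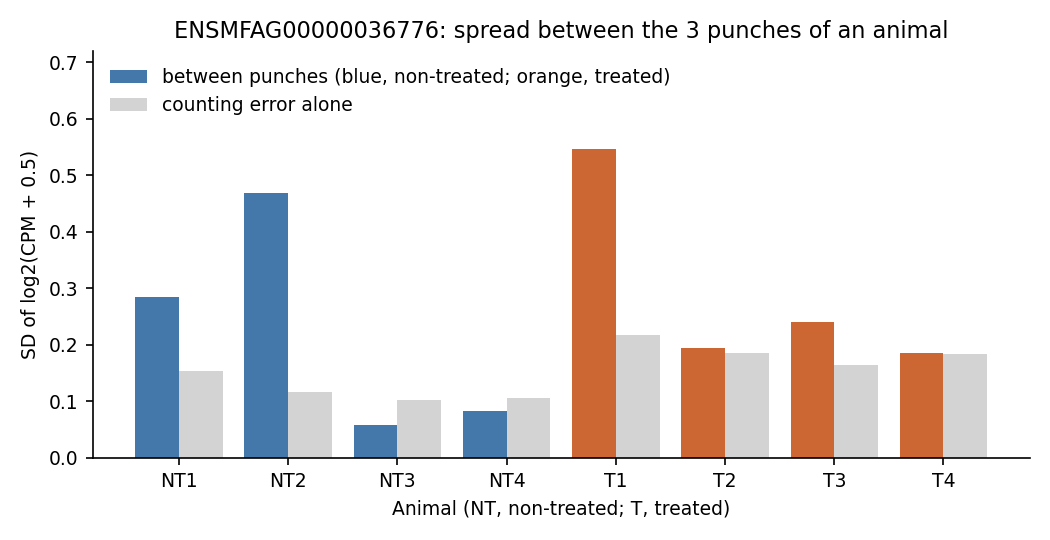
SD of log2(CPM + 0.5) between the 3 punches of each animal (coloured bars, blue for non-treated and orange for treated) beside the SD that counting error alone gives (grey bars). Treated animal 1 at 0.546 and non-treated animal 2 at 0.468 exceed their grey bars the most, while non-treated animals 3 and 4 lie below theirs.

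The extent of the lowering was compared between punch numbers to see how even it was. The labels do not say that a punch number marks the same site in every animal. The comparison is therefore one of numbers, and evenness over brain sites was not tested. In punch 1 the non-treated animals had 18.3 ± 2.83 CPM and the treated animals 4.55 ± 1.03 CPM (SD, n = 4 each). In punch 2 these values were 15.5 ± 2.69 and 4.24 ± 0.179 CPM, and the 4 treated punches lay between 4.06 and 4.40 CPM. In punch 3 they were 14.7 ± 2.69 and 3.32 ± 1.03 CPM. The treated punches thus kept 24.8%, 27.4% and 22.5% of the non-treated mean in punches 1, 2 and 3. Without punch 1 of treated animal 1 the share in punch 1 was 25.9%, and without punch 3 of non-treated animal 1 the share in punch 3 was 21.5%. Set against the non-treated mean of the same punch number, single treated punches ran from 12.6% in punch 3 of treated animal 1 to 31.0% in punch 1 of treated animal 3.

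Separate fits of each punch number gave log2 fold changes of similar size. They were -2.02 (SE 0.210) in punch 1, -1.88 (SE 0.191) in punch 2 and -2.15 (SE 0.304) in punch 3, where the SE was the widest. Without non-treated animal 1, punch 3 gave -2.22 (SE 0.271). Without treated animal 1, punch 1 gave -1.97 (SE 0.230). All 3 punch numbers hold the same animals, so these values are not independent of each other.

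Whether the lowering differed between punch numbers was tested in a model with animal, punch number and their combination with treatment, on a measure that the choice of the gene did not use. No difference was detected for ENSMFAG00000036776 (edgeR quasi-likelihood F-test, unadjusted p = 0.619, adjusted p = 1.00). The log2 fold change in punch 2 minus that in punch 1 was 0.17 (95% interval -0.44 to 0.78). For punch 3 minus punch 1 it was -0.12 (95% interval -0.75 to 0.50), and for punch 3 minus punch 2 it was -0.29 (95% interval -0.92 to 0.33). As folds these intervals span 0.739 to 1.72, 0.596 to 1.42 and 0.529 to 1.26, so the data do not show that the lowering was equal. Without punch 3 of non-treated animal 1 the differences were 0.16, -0.17 and -0.33, in the same order (edgeR F-test, unadjusted p = 0.52). Of all 13480 genes tested, 0 passed this test (0%) by edgeR and by limma-voom and 1 by DESeq2. By edgeR 255 of the 13480 genes had an unadjusted p under 0.05, fewer than the share of 0.05 expected without any difference. The test may thus be conservative in these libraries, and its lack of calls says little about evenness.

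The level itself was next compared between punch numbers within animals, over both groups. ENSMFAG00000036776 did not pass this test (edgeR quasi-likelihood F-test, unadjusted p = 0.0499, adjusted p = 0.22), while 1.09% of the 13480 genes did. The estimate for punch 3 was below that for punch 1 by a log2 difference of -0.38 (95% interval -0.67 to -0.08), or 0.77-fold, with an edgeR adjusted p of 0.115. Punch 3 was lower than punch 1 in 5 of 8 animals, and the remaining 3 included 2 in which they differed by less than 5%. Punch 2 minus punch 1 gave -0.17 (95% interval -0.46 to 0.12), with punch 2 lower in 4 of 8 animals. Punch 3 minus punch 2 gave -0.20 (95% interval -0.50 to 0.09). Without punch 3 of non-treated animal 1 the share of all genes that differed between punch numbers rose to 10.8%, and the adjusted p of this gene was 0.165 (edgeR F-test). Without punch 1 of treated animal 1 the count of all genes fell from 147 to 0, and the adjusted p of this gene was 0.265. Without both libraries 1473 of 13569 genes passed, and the adjusted p of this gene was 0.214 (edgeR F-test).

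**Figure D3:**
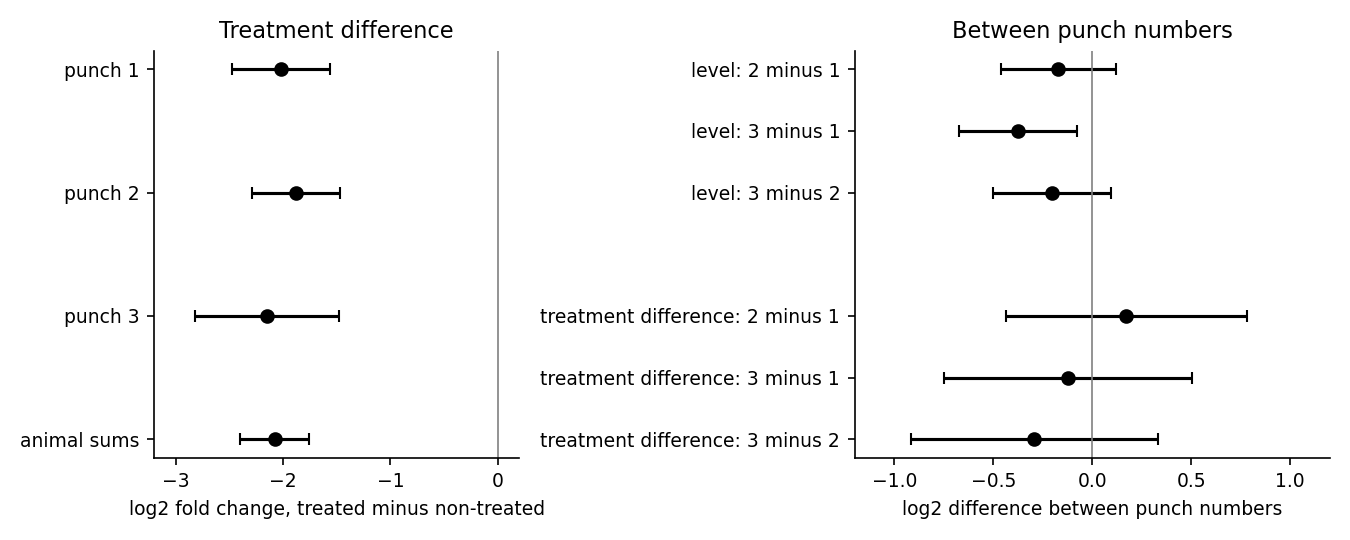
Left, log2 fold change of ENSMFAG00000036776, treated minus non-treated (x axis), in each punch number and in the animal sums, with 95% intervals. Right, log2 differences between punch numbers in its level and in its treatment difference, with 95% intervals: the 3 intervals of the treatment difference include 0, as do those of the level apart from punch 3 minus punch 1 at -0.67 to -0.08.

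The separation of single punches depended on the scaling in 1 library. Punch 3 of non-treated animal 1 held 38 reads of the gene among 8271894 reads. As CPM of all reads, without TMM scaling, this is 4.59 (95% exact Poisson interval 3.25 to 6.31), which lies inside the treated range of 2.03 to 6.44 on the same scale. The other 11 non-treated libraries had 11.9 to 22.0 CPM of all reads. After TMM scaling the same library stood at 12.7 CPM (95% exact Poisson interval 8.96 to 17.4), above all treated punches. As CPM of the reads outside the 12 abundant genes it had 21.3, within the 20.6 to 36.7 of the non-treated libraries, and the treated libraries had 2.99 to 9.09. The low CPM of all reads thus went together with the 78.4% of reads in abundant genes.

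Scaling also shifted the size of the lowering. The 12 abundant genes took 36.1% to 78.4% of the reads in non-treated libraries and 26.5% to 56.4% in treated libraries. Without the 2 libraries that stood apart, these ranges were 36.1% to 48.5% and 26.5% to 33.0%, and they did not overlap. With library size alone the log2 fold change of ENSMFAG00000036776 was -1.79, or 71.0% lower, and the median over all genes moved from -0.01 to 0.27. Relative to that median it was -2.05, against -2.07 with TMM scaling.

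Depth differed between the punches in which the gene was high and low. In non-treated animals 1, 2 and 4 the punch with the highest level was also the deepest library, at 13686171, 15637024 and 12360591 reads. Punch 3 of non-treated animal 4 was nearly as deep, at 12319395 reads. In non-treated animal 3 the highest level came from the shallowest library, at 8397916 reads. In no treated animal was the punch with the highest level the deepest library. In treated animal 4 it was the shallowest, at 9628025 reads. Punch 3 of treated animal 1, where the gene was lowest, held 9834741 reads in 16354 genes, with 32.0% of reads in the abundant genes, against 26.7% to 33.0% in punch 3 of the other treated animals. Over the 12 non-treated libraries, which share 4 animals, level and total reads had a Pearson r of 0.73 (Spearman rho 0.70), and over the 12 treated libraries 0.18 (rho 0.15), given as a description. Without the library that stood apart in each group, r was 0.69 and 0.19. Level and the number of genes with reads had an r of 0.53 (rho 0.73) in non-treated and 0.36 (rho 0.22) in treated libraries. Without the same libraries, r was 0.73 and 0.40. The part of depth or of the number of genes with reads in these differences was not tested.

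**Figure D4:**
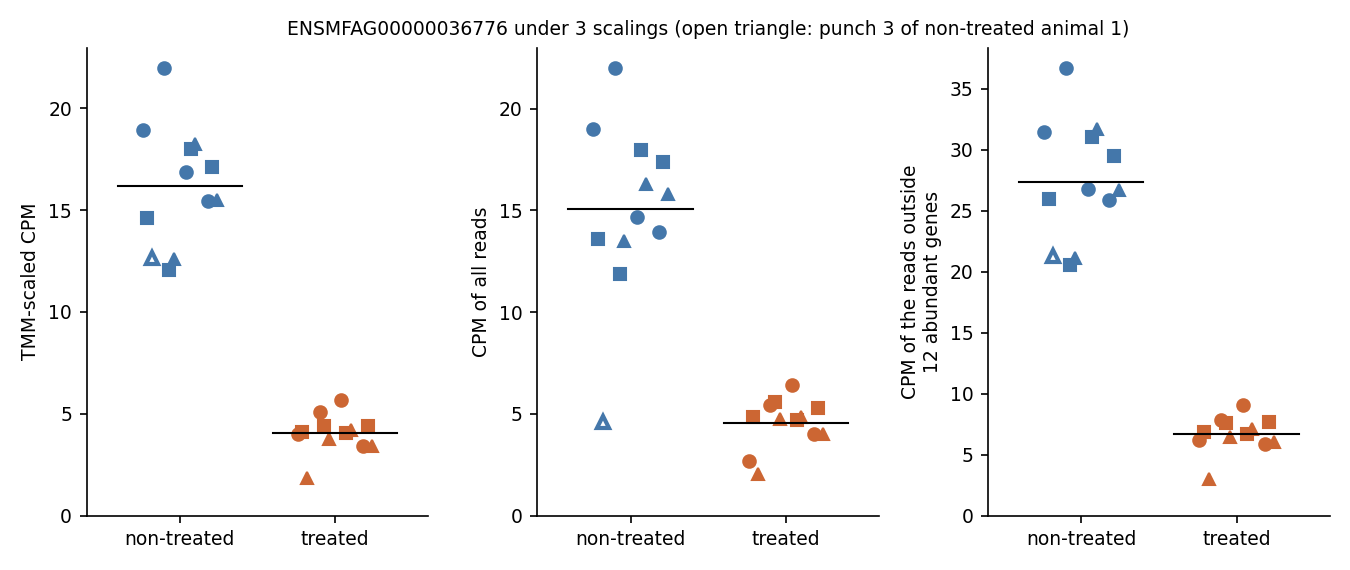
Level of ENSMFAG00000036776 in the 12 non-treated and 12 treated libraries on 3 scales (y axes: CPM after TMM scaling, CPM of all reads, and CPM of the reads outside the 12 abundant genes), with a line at each group's mean. Circles, squares and triangles are punches 1, 2 and 3, and the open triangle, punch 3 of non-treated animal 1, falls to 4.59 on the middle scale, among the treated libraries.

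Genes with a like pattern were looked for over the 24 libraries, as a description without a test. Of 13026 other genes, 4 had a Pearson r above 0.8 with ENSMFAG00000036776 on the log2(CPM + 0.5) scale and 0 had one above 0.9. The highest was ENSMFAG00000034429, with r = 0.87 over 24 libraries, and also 0.87 without the 2 libraries that stood apart. Its level was 45.5 ± 5.87 CPM without treatment and 13.9 ± 4.36 CPM with it (SD of the animals' punch means, n = 4 each). Within the 12 non-treated libraries its r was -0.10 and within the 12 treated libraries 0.09, so the likeness lay in the step between the groups. The most opposite pattern was that of ENSMFAG00000001626, with r = -0.86, at 216 ± 15.4 CPM in non-treated and 268 ± 14.3 CPM in treated animals. Both r values include the contrast for which ENSMFAG00000036776 was chosen.

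A second comparison took out the mean of each animal, which removes the treatment and leaves the differences between punches. By this measure 22 of 13026 genes had an r above 0.8 and 16 had one below -0.8, the lowest at -0.92. The gene most like ENSMFAG00000036776 was ENSMFAG00000036928, with r = 0.91 over 24 libraries from 8 animals. Its groups overlapped, at 28.2 ± 2.91 CPM without treatment (range over animals 26.4 to 32.6) and 31.5 ± 6.18 CPM with it (24.8 to 38.8, SD, n = 4 each). In treated animal 1 it had 29.0, 27.7 and 17.7 CPM in punches 1, 2 and 3, lowest in the same punch as ENSMFAG00000036776. In non-treated animal 2 it had 35.6, 22.3 and 23.5 CPM, highest in the same punch. Without the 2 libraries that stood apart its r was 0.90. It is the highest of many genes compared over few libraries that share animals, depth and scaling, so it describes these libraries only.

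**Figure D5:**
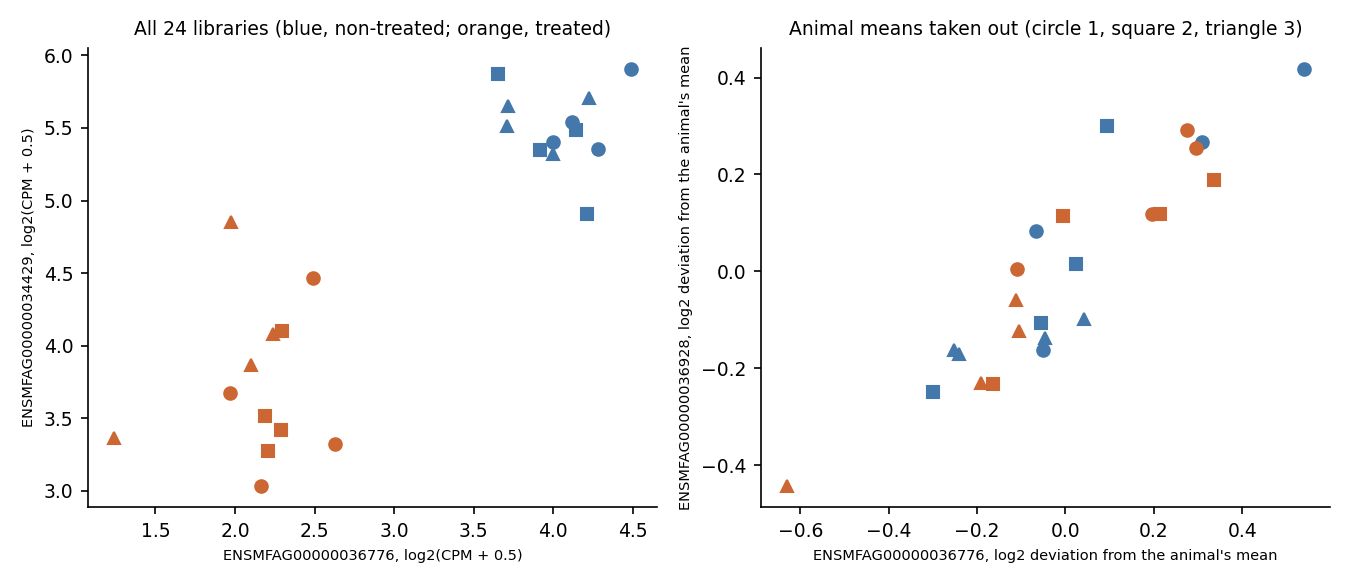
Left, log2(CPM + 0.5) of ENSMFAG00000034429 (y axis) against ENSMFAG00000036776 (x axis) in 24 libraries, where the groups form separate clouds and r is 0.87. Right, deviations of ENSMFAG00000036928 (y axis) and ENSMFAG00000036776 (x axis) from each animal's mean of log2(CPM + 0.5), where punches of both groups lie along a common line and r is 0.91.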

How the data were processed

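The deposited files hold raw read counts per gene for 24 libraries, 1 per punch. The submitters' processing notes name STAR 2.5.3a and HTSeq 0.10.0, while the build and gene models are not given in the sources at hand. The counts hold no molecular identifiers as far as the labels say, so repeated copies of a molecule could not be told apart. The exact Poisson intervals cover counting error only. The intervals from the edgeR fits also include the spread between animals or libraries. Counts were summed over the 3 punches of an animal, kept by filterByExpr (minimum count 10), scaled by TMM and fitted with edgeR 4.0.16 (quasi-likelihood, R 4.3.3) across all genes, with Benjamini-Hochberg adjustment over all of them. Punch numbers were fitted on single libraries with animal as a term. Levels on a log scale are log2(CPM + 0.5). All 276 pairs of libraries differed by a chi-square of at least 3.92 per degree of freedom over genes with at least 20 reads, so no library was counted as a repeat. The scripts were tested on simulated data.

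Genes named beside the main one were those with the highest r over libraries, the lowest r over libraries and the highest r within animals. The gene, the naming rule and the tests were chosen with earlier results of these data known. Alternatives were other scalings, filters and tools (DESeq2 1.42.0, limma-voom of limma 3.58.1), single punch numbers, a replicate block, and animals or libraries left out. Lists of marker and pathway genes could not be used without gene names.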

Additional observations from a re-analysis of the deposited data

Results flagged for a closer look

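The values of ENSMFAG00000036776 were examined in 10 groups of 4 animals or libraries for a member far from the other 3, and 1 was found. Chance flags about 1 in 20 groups where values are normally distributed. The 10 groups share libraries, and an SD over 3 punches is not normally distributed, so the rate of chance flags here is not known. In treated animal 1 the SD of log2(CPM + 0.5) between punches was 0.546, against 0.185 to 0.240 in the other treated animals. The gap to the nearest of these was 0.848 of the whole range, above the 95% critical value of Dixon's test. This spread rests on punch 3 of that animal, at 1.86 CPM on 20 reads, where its other punches had 3.99 and 4.12 CPM.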

How the results depend on the processing

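For ENSMFAG00000036776 the log2 fold change of -2.08 held its direction in 26 of 26 alternatives, between -2.22 and -1.79, and moved by more than the spread between animals (0.143) in 3 of them: -1.79 with library size alone, -1.88 in punch 2 alone and -1.89 as the mean of punch log2 values. Leaving out each animal gave -2.15 to -2.00. The fits of punches 1 and 3 without 1 library were chosen after the data were seen. With the replicate number as a replicate block it was -2.09 with 2 genes called. No label ties equal numbers to a shared animal or batch, and same-numbered animals' deviations correlated at 0.0022, 0.044, 0.253 and -0.128 across genes.

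The gene missed the threshold in 16 of 16 alternatives both for punch number (adjusted p of 0.141 to 0.79) and for the treatment effect between punch numbers (adjusted p of 0.899 to 1). The mean SD between punches in non-treated animals rose from 0.224 to 0.441 with library size alone, and the SD of animal means from 0.106 to 0.271 in non-treated and from 0.218 to 0.335 in treated animals, where it then exceeded the mean SD between punches of 0.277. Counts over all genes were less stable: 5 genes called for treatment became 0 to 153, the latter with DESeq2, with 1 to 43 over the fits that drop an animal, the latter without treated animal 1, and 147 for punch number became 0 to 1478, the former with library size alone, without punch 1 of treated animal 1 or without treated animal 2, the latter without punch 3 of non-treated animal 1. For the treatment effect between punch numbers, 0 became 4 with no filter and 1 with DESeq2. The cause was not tested. With 20 to 74 reads per treated library, depth limits what single treated punches can show.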
